A study of Mus musculus with 15 samples.

Results

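A set of 40 genes of the integrated stress response and the unfolded protein response were followed in mouse epiblast-like cells (EpiLCs) through induction and reversal of ERK signalling. They were chosen by name, as known targets of the transcription factor ATF4 and as chaperones and regulators of the endoplasmic reticulum (ER), and each matched 1 identifier among the 52636 in the table of read counts. The choice was made with earlier results of these data known, so the shares of members called below are descriptions. Of these 40 members, 23 made up the ATF4 arm (9 regulators, 8 enzymes of amino acid and one-carbon synthesis, 6 transporters and receptors) and 17 the ER arm (2 factors, 10 chaperones, 3 disulfide isomerases, 2 genes of ER-associated degradation). All 40 passed the filter on low counts, which left 13451 genes in all.

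The integrated stress response is a pathway in which kinases that sense amino acid shortage, ER stress, viral RNA or haem shortage phosphorylate the initiation factor eIF2. General translation then falls while that of Atf4 mRNA rises, and ATF4 switches on genes for amino acid synthesis, uptake and tRNA charging. The unfolded protein response is the ER's own programme, in which the sensors IRE1, ATF6 and PERK respond to unfolded protein; IRE1 splices Xbp1 mRNA, cleaved ATF6 and spliced XBP1 drive chaperone and degradation genes, and PERK is the eIF2 kinase that joins both pathways. The counts used here are of genes and do not separate spliced from unspliced Xbp1, nor do they measure translation or protein.

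RNA was sequenced from 15 samples of the line CRAFR26, which carries a c-RAF kinase construct that 4-hydroxytamoxifen (4OHT) switches on. All were kept for 48 h in N2B27 medium with bFGF (12 ng/ml), Activin A (20 ng/ml) and XAV939 (1 µM), and all, 0h included, were held with the FGF receptor inhibitor PD17 (PD173074, 250 nM) for 2 h before the start. All 15 also share a history of 2 RSC passages (abbreviation as recorded). The 0h group (n = 3) had no 4OHT, the 2h and 4h groups (n = 4 each) had 4OHT (250 nM) for 2 h or 4 h, and the rev group (n = 4) had 4OHT for 4 h and then a MEK inhibitor for 2 h. The samples came from 2 clones, clone 4 and clone 8, each a single clone of the line, with 2 libraries of each in every group except for 1 library of clone 4 at 0h. Libraries given 4OHT without the construct, or kept as long as rev without the MEK inhibitor, were not analysed here, so an effect of 4OHT itself or of time in rev cannot be told apart from that of the kinase. The labels do not say that replicates were separate cultures, so p-values measure only the spread between these samples.

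Levels are given as CPM, a gene's count scaled to a common library size with the trimmed mean of M-values (TMM), in the order clone4_1, clone8_1, clone8_2 at 0h and clone4_1, clone4_2, clone8_1, clone8_2 elsewhere. A gene was called higher or lower when the adjusted p of edgeR's quasi-likelihood F test, corrected by Benjamini-Hochberg over all 13451 genes, was under 0.05. Total counts were 1552022 to 6658950 at 4h and 8667880 to 13004556 in the other groups, and the members summed to 4383 to 11284 counts per library at 4h and 24299 to 69700 elsewhere. Mitochondrial genes took 7.21% to 12.4% of the counts at 4h and 2.67% to 6.98% elsewhere. Spry4, a feedback inhibitor that ERK switches on, ranged from 0.727 to 0.972 CPM before 4OHT. It reached 60.9 to 124 CPM after 2 h, still held 38.5 to 105 CPM after 4 h, and was down to 9.73 to 18.0 CPM in rev. The 6 EpiLC markers (Fgf5, Otx2, Dnmt3b, Pou3f1, Pou5f1, Sox2) were all detected at 4h, with a sum of 681 to 761 CPM against 949 to 1399 elsewhere, and in 4h vs 0h Otx2 and Sox2 were called higher and the other 4 lower. The 6 markers of naive embryonic stem cells summed to 32.8 to 146 CPM at 4h against 12.4 to 21.9 elsewhere, with 5 called higher. The 4 neural markers summed to 45.8 to 65.6 CPM at 4h against 15.9 to 26.0 elsewhere, with Sox1 and Pax6 called higher, Tubb3 lower and Neurog2 at 0 at 4h. At 4h the endoderm, mesoderm and trophoblast markers summed to 3.02 to 7.90, 5.92 to 11.6 and 8.42 to 41.5 CPM with Elf5 at 0, against 4.48 to 9.40, 3.27 to 9.40 and 17.5 to 65.6 CPM elsewhere. The part of depth, mitochondrial share and marker changes in the results at 4h was not tested. In these bulk samples fewer cells of a type and less RNA per cell cannot be told apart.

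The arms differ in the letters of their promoters. Because members were chosen as known ATF4 targets and ER genes, the choice itself favours such a difference, and the shares below only describe it. In windows from 250 bases before to 50 bases after the start of transcription (RefSeq, GRCm38.p6), 35 of the 40 members had an entry and Atf6, Hyou1, Manf, Slc7a3 and Slc7a5 had none. The C/EBP-ATF response element (CARE, TGATGNAA), to which ATF4 binds with a C/EBP partner, was sought on both strands, as was the ER stress response element (ERSE: CCAAT, any 9 bases, CCACG), where NF-Y holds the CCAAT end and ATF6 or XBP1 the other. CARE was found in 6 of 21 members of the ATF4 arm (28.6%), in 1 of 14 of the ER arm (7.14%) and in 4.51% of all genes with an entry. ERSE was found in 7 of the 14 ER arm members (Calr, Canx, Creld2, Dnajc3, Hsp90b1, Hspa5 and Pdia6), in no ATF4 arm member and in 0.119% of all 32851 promoters. The shorter ERSE-II (ATTGG, any base, CCACG) was present only in Herpud1 among the members, with 0.0365% of all promoters, and the core of the XBP1 element (TGACGTGG, 0.676% of all promoters) in none of the 35. Matches of different motifs did not overlap. A match describes letters and does not show binding. The windows below carry the motifs of the genes on which the results turn, 5′ to 3′ on the gene's strand, with matches on either strand in capitals.
Hspa5 (chr2:34771995-34772073, plus strand, ERSE): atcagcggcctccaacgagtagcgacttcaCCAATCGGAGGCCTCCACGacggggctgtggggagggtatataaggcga
Hsp90b1 (chr10:86705503-86705686, minus strand, ERSE in both orientations): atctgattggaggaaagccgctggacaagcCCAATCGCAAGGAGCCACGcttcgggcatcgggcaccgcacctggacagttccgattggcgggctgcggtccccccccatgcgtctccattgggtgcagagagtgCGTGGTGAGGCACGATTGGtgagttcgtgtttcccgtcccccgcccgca
Calr (chr8:84847045-84847123, minus strand, ERSE): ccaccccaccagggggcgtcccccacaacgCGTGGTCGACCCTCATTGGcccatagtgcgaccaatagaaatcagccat
Herpud1 (chr8:94386287-94386417, plus strand, CARE and then ERSE-II): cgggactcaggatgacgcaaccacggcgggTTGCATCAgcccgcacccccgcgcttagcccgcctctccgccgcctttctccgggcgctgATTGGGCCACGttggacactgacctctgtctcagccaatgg
Chac1 (chr2:119351019-119351086, plus strand, CARE): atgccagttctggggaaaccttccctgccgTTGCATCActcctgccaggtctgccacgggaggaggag
Slc7a11 (chr3:50443623-50443709, minus strand, CARE in both orientations): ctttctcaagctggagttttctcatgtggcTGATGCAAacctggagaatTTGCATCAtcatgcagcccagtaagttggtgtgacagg
Trib3 (chr2:152344028-152344057, minus strand, CARE after the start site): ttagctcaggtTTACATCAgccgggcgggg
Asns (chr6:7693210-7693262, minus strand, CARE): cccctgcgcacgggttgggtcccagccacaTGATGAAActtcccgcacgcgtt
Pycr1 (chr11:120643814-120643881, minus strand, CARE): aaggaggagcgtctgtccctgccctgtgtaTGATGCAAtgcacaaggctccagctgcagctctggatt

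The 6 ATF4 arm members with CARE did not move as one. At 4h against 0h, where 39.4% of all genes were called (20.5% higher, 18.9% lower), Trib3, Chac1, Slc7a11 and Vldlr were called lower, Pycr1 was called higher and Asns was not called, over a range of log2 fold changes from -2.61 to 0.83. Of the 15 members of that arm with an entry and no CARE, 9 were called lower, none higher, and 6 were not called. In the ER arm, 4 of the 7 members with ERSE were called lower at 4h and 3 were not called, while of the 7 with an entry and no ERSE, 3 were called lower, 1 higher and 3 were not called. Asns and Pycr1 thus hold the same element, at -23 to -16 and at -103 to -96 from the start, as members that fell.

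At 2 h of 4OHT few members were called, and those called higher with TMM scaling were mostly genes of ER stress. In 2h vs 0h, where 6.45% of all genes were called (3.98% higher, 2.46% lower), 2 of 23 ATF4 arm members were called, Ddit3 higher and Slc3a2 lower, and 3 of 17 ER arm members were called, Hspa5, Herpud1 and Xbp1, all higher. The 2h libraries lay wholly above or below the 0h libraries for 3 of 23 and 7 of 17 members, against 19.1% of all genes. The median log2 fold change was -0.03 in the ATF4 arm, 0.15 in the ER arm and 0.01 over all genes. Ddit3 (ENSMUSG00000025408, chr10:127290774-127296288), which encodes CHOP, the factor that links prolonged stress to cell death, had 4.10, 6.15 and 6.06 CPM at 0h and 19.4, 21.1, 12.0 and 15.6 at 2h. Each 2h library lay above each 0h library, and the clone 4 libraries held the highest values. Its log2 fold change was 1.69 (SE 0.259, adjusted p = 0.000303, edgeR). Of its exon bases 10.86% are shared with other annotated genes, among them Mars, and without a stated strand setting reads there cannot be assigned.

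Hspa5 (ENSMUSG00000026864, chr2:34771970-34777547) encodes BiP, the main Hsp70 chaperone of the ER, which also holds the stress sensors inactive. It had 330, 311 and 285 CPM at 0h and 633, 536, 385 and 534 at 2h, with no overlap, a log2 fold change of 0.66 (SE 0.147, adjusted p = 0.0114). Herpud1 (ENSMUSG00000031770, chr8:94386438-94395377), a membrane protein of ER-associated degradation, had 19.9, 21.4 and 23.0 CPM at 0h and 31.9, 29.1, 39.6 and 38.7 at 2h. The groups again did not overlap, and the log2 fold change was 0.75 (SE 0.152, adjusted p = 0.0035). Xbp1 (ENSMUSG00000020484, chr11:5520659-5525893) rose by 0.57 (SE 0.132, adjusted p = 0.0105), and its 2h libraries, at 17.4 to 20.2 CPM, all lay above the 11.7 to 13.03 CPM of 0h. Without the 0h library of clone 4 the calls of Xbp1 (0.45, adjusted p = 0.141) and Hspa5 (0.52, adjusted p = 0.105) were lost, and Herpud1 alone was left of the 3 (2.23% of all genes called). Without the clone in the model Hspa5 and Herpud1 were lost and Xbp1 was left (3.17% of all genes called). With scaling by the total count none of the 3 was called. Hspa5, Herpud1 and Xbp1 then stood at 0.50, 0.56 and 0.39 (edgeR adjusted p = 0.511, 0.472 and 0.725). Slc3a2, the heavy chain shared by several amino acid exchangers, fell by 0.40 (SE 0.0962, adjusted p = 0.0125). That call was lost without 0h clone8_1 or 2h clone8_1, with 1 of 23 members then left (4.29% and 3.62% of all genes called). Chac1, Slc7a11 and Dnajb9 had log2 fold changes of 0.65, 0.62 and 0.73 that were not called.

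**Figure D1:**
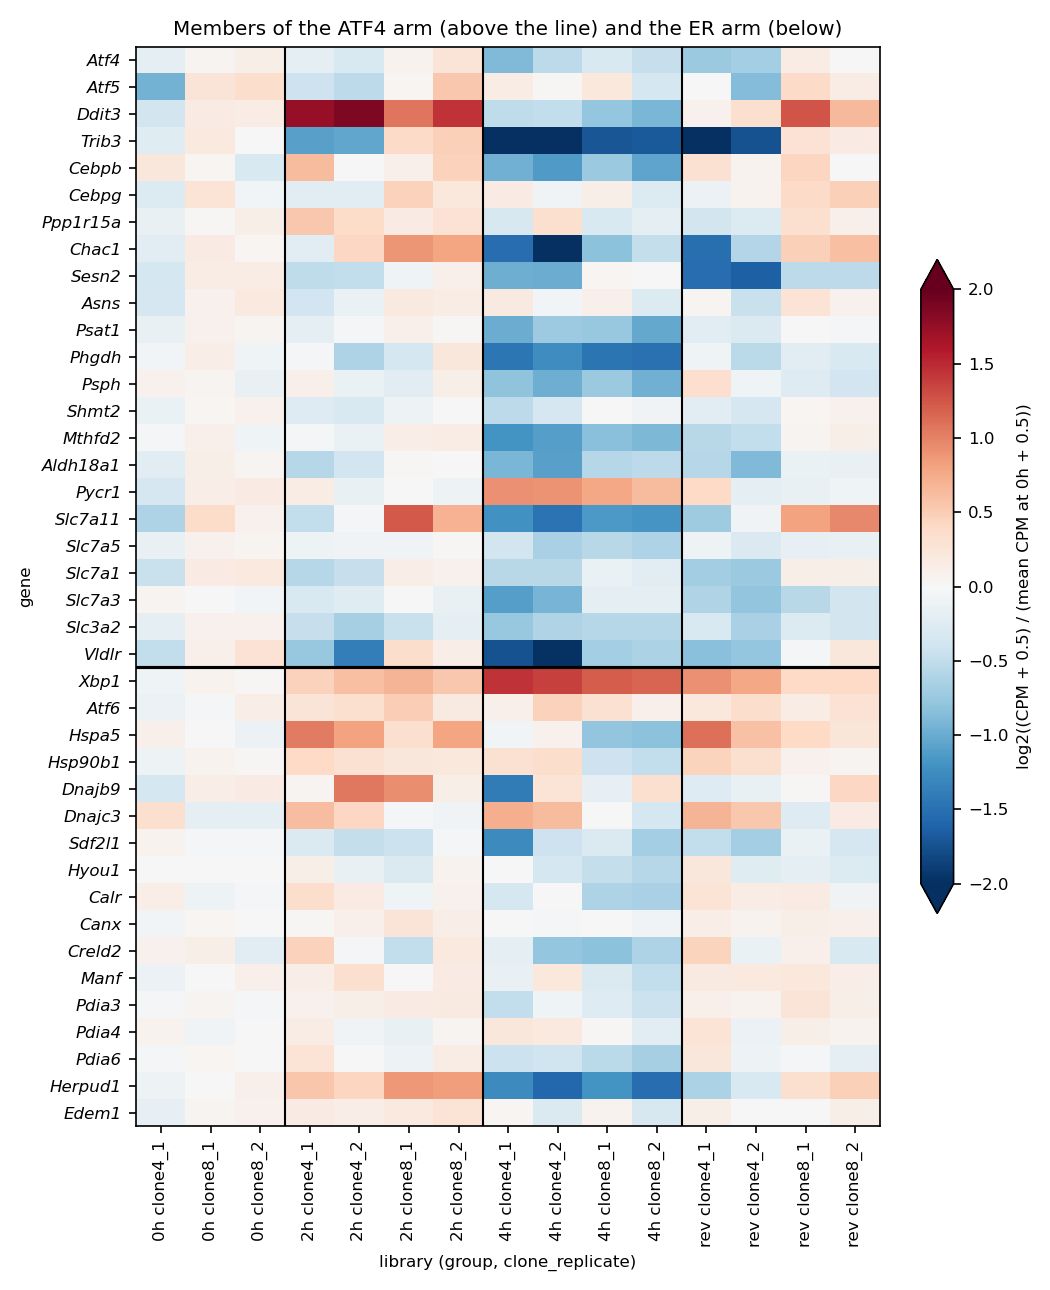
Log2 ratio of each member's CPM (plus 0.5) to its mean at 0h (plus 0.5) in the 15 libraries, by group, clone and replicate; the colour scale stops at 2 and -2, and the thick line parts the 23 ATF4 arm members from the 17 of the ER arm. The 4h libraries were low for most of the ATF4 arm and high for Pycr1 and Xbp1, and Ddit3 was high at 2h.

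At 4 h most of the ATF4 arm was low. In 4h vs 0h (39.4% of all genes called), 16 of its 23 members were called, 15 lower and 1 higher, with a median log2 fold change of -0.59 against 0.03 over all genes. For 16 of the 23 the 4h libraries all lay on one side of the 0h libraries, which held for 36.3% of all genes. In the ER arm 9 of 17 were called, 8 lower and 1 higher, with a median of -0.19, and 5 of 17 had groups that did not overlap. Without the clone in the model the counts were 11 and 6, with 32.6% of all genes called, and the calls of Atf4, Chac1, Sesn2, Slc7a11, Vldlr, Hspa5, Sdf2l1 and Hyou1 were lost. The called share was thus 69.6% in the ATF4 arm and 52.9% in the ER arm, and the difference between the arms was not tested. Summed over the ATF4 arm, the 0h libraries held 1388 ± 143 CPM (mean ± SD, n = 3), with 1223 in clone 4 and 1483 and 1457 in clone 8. This mean and those below are not adjusted for the clone, whose mix at 0h differs from the other groups. The sum was 1308 ± 150 CPM with 4OHT for 2 h, 942 ± 78.5 CPM with 4OHT for 4 h and 1184 ± 180 CPM in rev (n = 4 each). The ER arm held 1862 ± 21.2 CPM before 4OHT and, in the same order, 2252 ± 153, 1638 ± 252 and 2160 ± 237 CPM.

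Among the regulators, 5 of 9 were called, all lower. Trib3 (ENSMUSG00000032715, chr2:152337422-152344032), a pseudokinase that ATF4 and CHOP switch on and that restrains ATF4 in turn, had 14.2, 19.3 and 17.0 CPM at 0h and 0, 1.48, 4.78 and 4.90 at 4h. The zero in 4h clone4_1, the shallowest library, allows up to 1.83 CPM, and the other 3 rest on 6, 21 and 13 counts. Its log2 fold change was -2.61 (SE 0.424, adjusted p = 0.000364), the largest fall among the 40 members. Chac1, a glutathione-degrading enzyme downstream of ATF4, had 8.15, 10.9 and 9.93 CPM at 0h and 3.05, 1.48, 5.24 and 6.79 at 4h, a log2 fold change of -1.24 (SE 0.308, adjusted p = 0.00393). Cebpb, a partner of ATF4 that shares 20.74% of its exon bases with Tmem189, fell by 1.06. Atf4 itself (ENSMUSG00000042406, chr15:80255184-80257541) had 99.3, 117 and 122 CPM at 0h and 61.1, 78.5, 90.8 and 81.8 at 4h, every 4h library below every 0h library, with a log2 fold change of -0.45 (SE 0.115, adjusted p = 0.00361). That call was also lost when 4h clone4_1 and 4h clone8_2 were both left out. Sesn2, an inhibitor of mTORC1 in leucine shortage, fell by 0.34, a call lost without 0h clone4_1, 4h clone4_1 or 4h clone4_2. Ddit3 was back at 2.64 to 3.70 CPM, below the 0h libraries, without a call against 0h (-0.72, adjusted p = 0.0548), and fell by 2.41 from 2h (SE 0.269, adjusted p = 8.85e-07). Atf5, Cebpg and Ppp1r15a (the eIF2 phosphatase subunit GADD34) had log2 fold changes of 0.23, 0.07 and -0.07 and were not called.

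All 3 enzymes of serine synthesis fell. Phgdh (ENSMUSG00000053398, chr3:98313170-98339990), the first of them, had 50.5, 58.0 and 49.4 CPM at 0h and 18.9, 22.0, 18.9 and 18.5 at 4h. The 4h libraries lay close together and far below those at 0h, and the log2 fold change was -1.41 (SE 0.157, adjusted p = 7.13e-07). Psat1 (ENSMUSG00000024640, chr19:15904678-15947337), which takes the second step, had 182, 213 and 209 CPM at 0h and 101, 121, 119 and 98.4 at 4h, a log2 fold change of -0.84 (SE 0.093, adjusted p = 5.68e-07). Psph, the last enzyme of serine synthesis, fell by 0.92, with 10.44% of its exon bases shared with Cct6a. Mthfd2, the mitochondrial folate enzyme, fell by 0.97 (adjusted p = 7.17e-07), from 61.2 to 69.5 CPM at 0h to 28.1 to 36.2 at 4h. Shmt2, which feeds serine carbon into the same folate pool, had a log2 fold change of -0.17 and was not called, so the enzymes around that step did not all pass the test.

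The proline pathway split with TMM scaling. Aldh18a1, which makes the precursor of proline from glutamate, fell by 0.70 (SE 0.104, adjusted p = 2.06e-05). Pycr1 (ENSMUSG00000025140, chr11:120635712-120643769), which takes the last step to proline, rose instead, from 9.18, 12.9 and 13.2 CPM at 0h to 22.6, 22.5, 20.5 and 18.5 at 4h, and was the only ATF4 arm member called higher. Its log2 fold change was 0.83 (SE 0.173, adjusted p = 0.000717), and all 4h libraries lay above all others of the series. With scaling by the total count the log2 fold change of Pycr1 was 0.11 and not called (edgeR adjusted p = 0.771), while that of Aldh18a1 was -1.43. Asns, the asparagine synthetase often used as a readout of ATF4, had 65.3, 88.1 and 95.3 CPM at 0h and 93.5, 79.5, 88.6 and 68.2 at 4h, with a log2 fold change of 0.06 (SE 0.143, adjusted p = 0.765). All 4h libraries lay within the range of those at 0h.

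Of the 6 transporters and receptors, 5 were called, all lower. Slc7a11 (ENSMUSG00000027737, chr3:49892526-50443614), the cystine importer xCT, had 5.78, 12.0 and 9.69 CPM at 0h and 3.67, 2.96, 3.87 and 3.77 at 4h, a log2 fold change of -1.20 (SE 0.243, adjusted p = 0.000533). The lipoprotein receptor gene Vldlr fell by 1.17, to between 1.48 and 4.52 CPM, which in clone 4 rests on 3 and 6 counts. Slc3a2 and its partner for large neutral amino acids Slc7a5 fell by 0.59 and 0.54, and the arginine transporter Slc7a3 by 0.54, a call lost without 0h clone4_1 (-0.35, adjusted p = 0.0742). Slc7a1, another carrier of basic amino acids, had a log2 fold change of -0.23 and was not called.

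**Figure D2:**
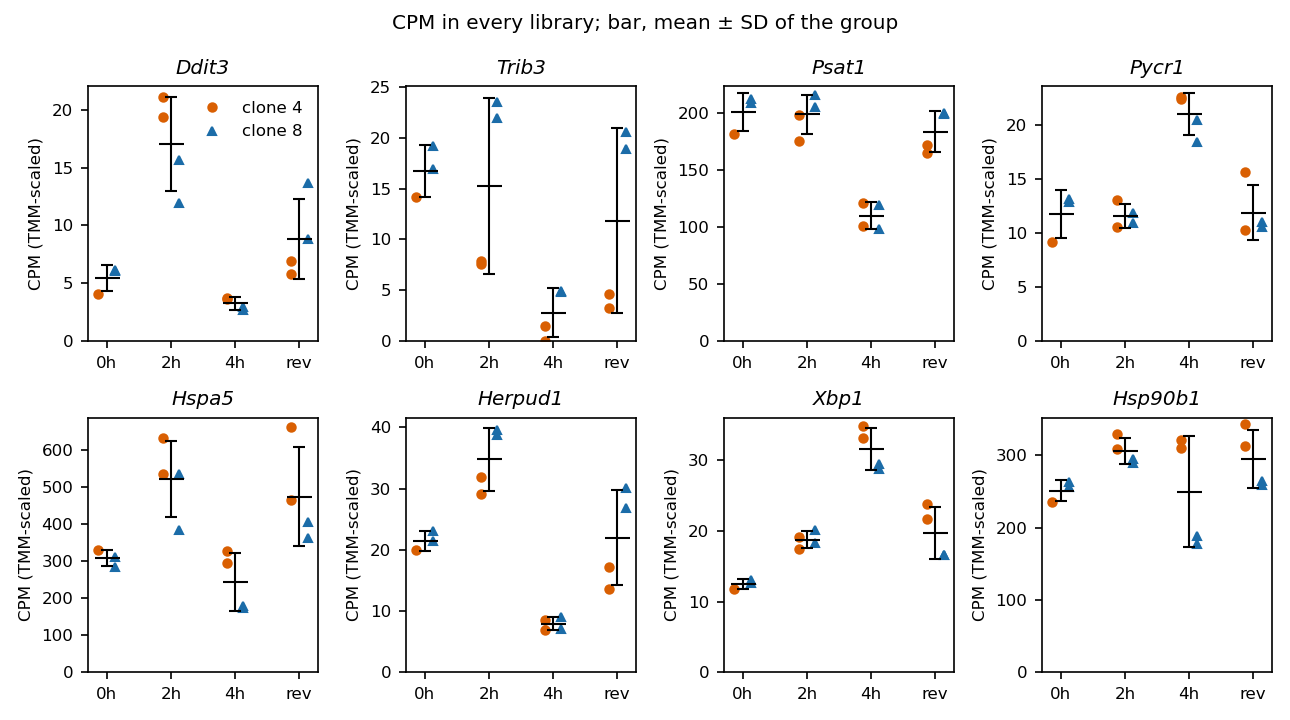
CPM of 8 members in every library by group (circles, clone 4; triangles, clone 8), with bars for the mean ± SD of the group (n = 3 at 0h and n = 4 elsewhere). Ddit3, Hspa5 and Herpud1 rose at 2h and fell by 4h, Pycr1 and Xbp1 were highest at 4h, and Trib3 and Hsp90b1 stood at different levels in the 2 clones at 4h.

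The ER arm divided at 4h between Xbp1, which was called higher, and 8 members called lower. Within the clones the arm's median log2 fold change against 0h was 0.04 in clone 4, with 1 library at 0h, and -0.44 in clone 8. Of the 17 members, 11 had the same sign in both, so by the median the fall lay in clone 8. Xbp1 had 11.7, 13.03 and 12.6 CPM at 0h and 34.8, 33.1, 29.4 and 28.7 at 4h, so that it rose at 2h and again by 4h, with log2 fold changes of 1.31 against 0h (SE 0.137, adjusted p = 2.67e-07) and 0.74 against 2h. It was the only ER arm member called higher at 4h, a call lost with scaling by the total count (0.59, edgeR adjusted p = 0.0913). Herpud1, high at 2h, had 8.55, 6.91, 9.11 and 7.16 CPM at 4h, below every 0h library, with log2 fold changes of -1.38 against 0h (SE 0.162, adjusted p = 1.27e-06) and -2.14 against 2h (SE 0.155, adjusted p = 1.33e-09). Hspa5 fell by 1.14 from 2h, and against 0h by 0.48 (SE 0.146, adjusted p = 0.0161), a call lost without 0h clone8_1 or 4h clone8_2. Its 4h values were 296 and 326 CPM in clone 4, within the range at 0h, and 179 and 175 in clone 8.

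Of the other chaperones, Creld2 fell by 0.67, Sdf2l1 by 0.61, the calcium-binding lectin chaperone Calr by 0.44 and Hyou1, a nucleotide exchange factor for BiP, by 0.37 against 0h. The median over all 10 chaperones, Hspa5 included, was -0.02 in clone 4 and -0.48 in clone 8. The calls of Creld2, Sdf2l1 and Hyou1 each depended on single libraries: Creld2 was not called without 0h clone8_1, Hyou1 without 0h clone8_1 or 4h clone8_2, and Sdf2l1 without any of 0h clone4_1, 0h clone8_1, 4h clone4_1 or 4h clone8_2, with 3 counts in 4h clone4_1. Sdf2l1 was also not called in 7 of 9 other settings, DESeq2 among them. Without 0h clone8_1 alone, 5 of 17 members were called, where 32.7% of all genes were called. Without 4h clone8_2 alone the count was 6 of 17, where 35.3% of all genes were called. Neither count stood above the share of all genes. Of the 3 disulfide isomerases, which form and reshuffle the bonds of folding proteins, Pdia6 (-0.53, adjusted p = 0.000388) and Pdia3 (-0.30, adjusted p = 0.0141) fell as well, whereas Pdia4 had a log2 fold change of 0.04. Canx, the membrane partner of calreticulin, stood at 384 to 413 CPM at 0h and 380 to 403 at 4h, and Dnajc3, Dnajb9, Manf, Edem1, Atf6 and Hsp90b1 were likewise not called.

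Between 2 h and 4 h most members of both arms fell. In 4h vs 2h, where 38.9% of all genes were called (19.7% higher, 19.2% lower), 15 of 23 ATF4 arm members were called (14 lower, 1 higher, median -0.49) and 11 of 17 ER arm members (10 lower, 1 higher, median -0.32), against a median of -0.01 over all genes. Groups did not overlap for 11 of 23 and 7 of 17 members, against 26.1% of all genes. The largest falls were those of Trib3 (-2.43), Ddit3 (-2.41), Herpud1 (-2.14), Chac1 (-1.89) and Slc7a11 (-1.82). The comparison shares its 4h libraries with 4h vs 0h, so that it is no separate evidence of low values at 4h. Manf, a secreted ER protein, Edem1, which marks misfolded glycoproteins for degradation, and Hsp90b1, the ER's Hsp90, were called here (-0.32, -0.31 and -0.33) but not against 0h, and each call was lost without 1 or more single libraries. Without 4h clone8_2 the ER arm's count was 7, where 34.6% of all genes were called.

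**Figure D3:**
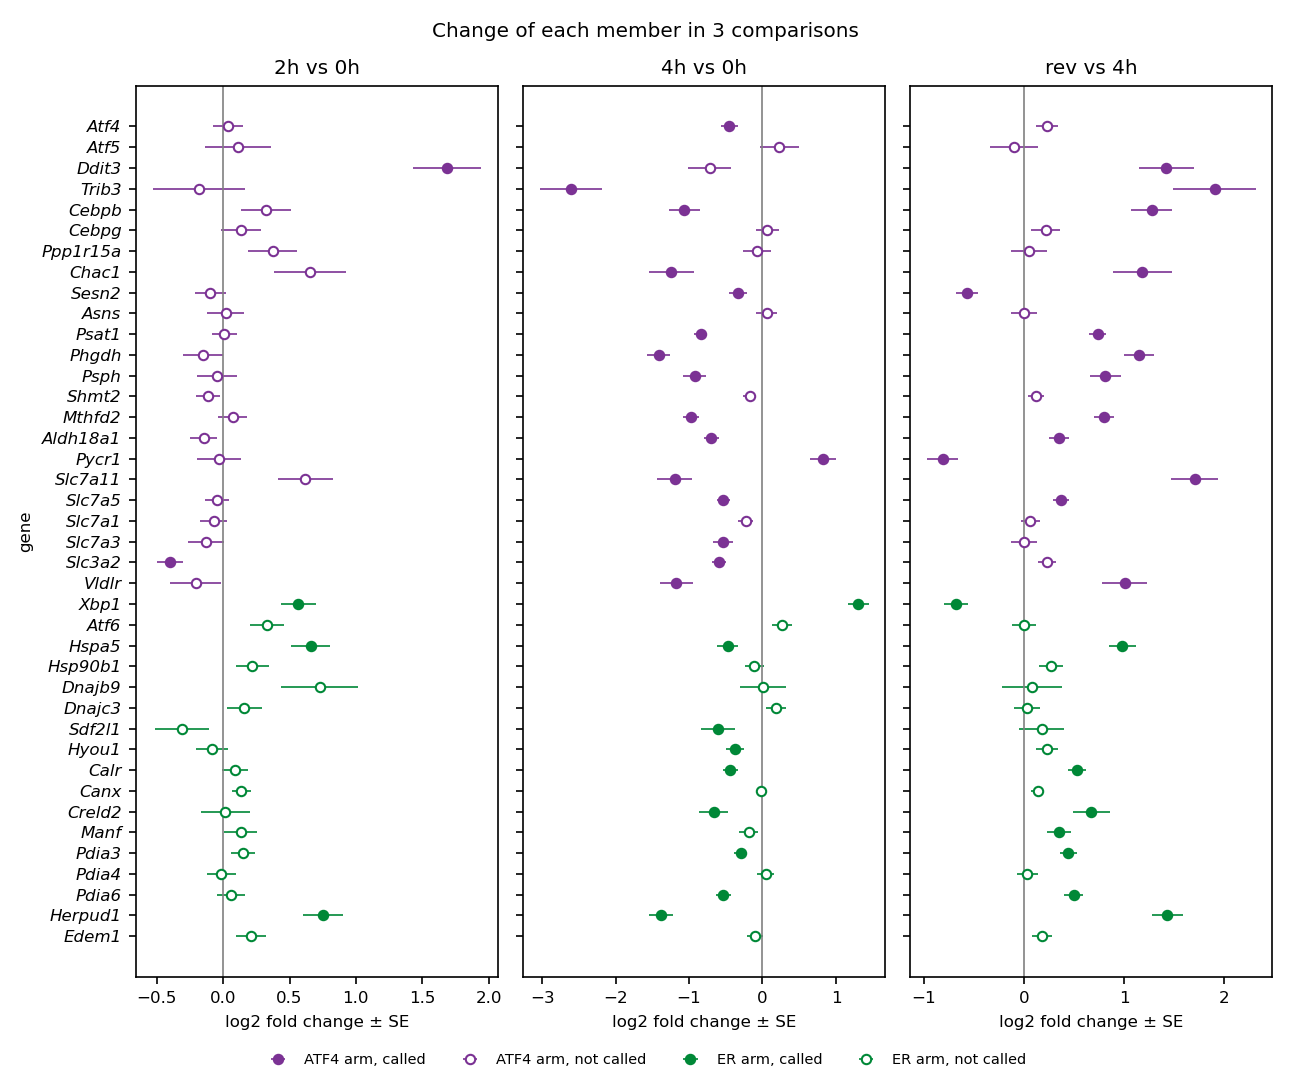
Log2 fold change ± SE of each member, from left to right for 2h and for 4h against 0h and for rev against 4h, with filled symbols for called members of the ATF4 arm (purple) and the ER arm (green); each panel has its own scale. Most filled symbols lie below 0 in the middle panel and above 0 in the right one, with Pycr1 and Xbp1 on the other side in both.

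In the reversal most members called were higher than at 4h. In rev vs 4h, where 30.8% of all genes were called (15.1% higher, 15.6% lower), 14 of 23 ATF4 arm members were called, 12 higher and 2 lower (median 0.35), and 8 of 17 ER arm members, 7 higher and 1 lower (median 0.23), against a median of 0.02 over all genes. Groups did not overlap for 9 of 23 and 6 of 17 members, against 22.8% of all genes. The comparison uses the same 4h libraries as those before. Psat1 had 172, 165, 200 and 199 CPM in rev, above every 4h library, and rose by 0.74 (SE 0.0864, adjusted p = 1.68e-06). Phgdh rose by 1.15, Mthfd2 by 0.80, Psph by 0.81, Slc7a11 by 1.70 and Cebpb by 1.28. Hspa5 stood at 663, 465, 406 and 363 CPM and rose by 0.98 (SE 0.135, adjusted p = 4.08e-05). Herpud1 stood at 13.7, 17.2, 26.8 and 30.1 CPM and rose by 1.43 (SE 0.155, adjusted p = 5.74e-07), the clone 4 libraries below those of 0h and the clone 8 libraries above them. Ddit3 rose by 1.42, to 5.82, 6.92, 13.7 and 8.82 CPM. Calr, Creld2, Pdia3, Pdia6 and Manf completed the ER arm's higher calls, the last lost without any of 5 single libraries.

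The 3 members that fell in rev were of different kinds. Pycr1 and Xbp1, high at 4h, fell by 0.82 and 0.68. All 3 of these calls were lost with scaling by the total count (Pycr1 -0.38, Xbp1 -0.27 and Sesn2 -0.18, adjusted p = 0.332, 0.481 and 0.638). Sesn2 (ENSMUSG00000028893, chr4:132492032-132510501) was lower still: it had 62.5, 89.0 and 88.9 CPM at 0h and 40.3, 39.99, 82.4 and 80.3 CPM at 4h. The rev libraries held 27.7, 25.6, 55.6 and 55.6 CPM. In each clone the rev libraries lay below all others of that clone, and the log2 fold change was -0.57 against 4h (SE 0.11, adjusted p = 0.000455) and -0.91 against 0h (SE 0.116, adjusted p = 3.15e-05). It had the largest difference from 0h that rev left among the members called.

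Against 0h, rev showed few calls. In rev vs 0h, where 11.2% of all genes were called (6.49% higher, 4.66% lower), 4 of 23 ATF4 arm members were called, all lower (Sesn2, Slc7a3 by 0.54, Slc3a2 by 0.36 and Aldh18a1 by 0.35), and 2 of 17 ER arm members, both higher (Xbp1, 0.63, and Hspa5, 0.51). Groups did not overlap for 3 of 23 and 7 of 17 members, against 25.9% of all genes. Without 0h clone4_1, where 3.7% of all genes were called, Sesn2 was the only ATF4 arm member and no ER arm member was called. The ATF4 arm's count was 2 without 0h clone8_1, rev clone4_2 or rev clone8_2 (7.41%, 6.47% and 6.14% of all genes). The ER arm's count was 1 without 0h clone8_2 (8.02% of all genes). It was also 1 without rev clone4_1, clone8_1 or clone8_2 (9.78%, 8.39% and 6.14% of all genes). For Hspa5 the call was lost without any of 5 single libraries. A missing call does not show that a member was back at its level of 0h: Ddit3, at 5.82 to 13.7 CPM in rev, had a log2 fold change of 0.70 (SE 0.251, adjusted p = 0.0758), and Trib3 one of -0.71 (SE 0.353, adjusted p = 0.227).

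The clones differed in the level of many members. Over all groups, with the group in the model, 14 of 23 ATF4 arm members were called higher in clone 8 and none lower, where 18.5% of all genes were called (10.4% higher, 8.11% lower), and the median log2 difference was 0.31 against 0.00 over all genes. In the ER arm 5 of 17 were called, Herpud1 higher in clone 8 and Dnajc3, Hspa5, Hsp90b1 and Calr lower, with a median of -0.12. This comparison was added after the data were seen, and it compares 2 single clones. With scaling by the total count, 6 ATF4 arm members (all higher in clone 8) and 1 ER arm member (lower) were called. The share of all genes called in that fit was not counted. Trib3 differed most, by 1.57 (SE 0.27, adjusted p = 0.00131). At 0h its clones lay closer, with 14.15 CPM in clone 4 and 19.25 and 16.96 in clone 8. It had 7.60 and 7.87 CPM in clone 4 and 22.0 and 23.5 in clone 8 at 2h, and 3.29 and 4.65 in clone 4 and 20.6 and 18.9 in clone 8 in rev. Its course was called different between the clones (below), so 1.57 averages over unlike groups. Vldlr (1.13), Slc7a11 (1.04), Chac1 (1.03), Sesn2 (0.79), Slc7a1 (0.63), Atf5 (0.62), Aldh18a1 (0.47) and Atf4 (0.46, adjusted p = 0.000252) followed. Dnajc3, a co-chaperone that inhibits eIF2 kinases, was lower in clone 8 by a log2 difference of -0.66 (adjusted p = 2.82e-05) and Hspa5 by -0.50. The serine enzymes Phgdh, Psat1 and Psph, with differences of 0.07, 0.14 and -0.16, were not called. Spry4 differed as well, with 118 and 124 CPM in clone 4 against 61.7 and 60.9 in clone 8 at 2h, and 94.1 and 105 against 38.5 and 43.7 at 4h; its part in these differences was not tested.

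The fall of the ATF4 arm at 4h was seen within each clone. In 4h vs 0h it had 15 of 23 members called within clone 4 (27.1% of all genes) and 15 within clone 8 (26.5% of all genes), with medians of -0.64 and -0.66, and 19 of 23 had the same sign in both. The ER arm had 3 of 17 called within clone 4 (median 0.04) and 9 within clone 8 (median -0.44). In 2h vs 0h the ATF4 arm had 1 call in each clone and the ER arm 3 in each, where 4.33% and 2.42% of all genes were called within clone 4 and clone 8. In 4h vs 2h the ATF4 arm had 16 and 14 calls and the ER arm 6 and 9 (27.3% and 26.9% of all genes), and in rev vs 4h 12 and 14 and 5 and 8 (17.0% and 23.4% of all genes). The test of the difference between clones over the whole course, jointly over 3 interaction terms, called 3.18% of all genes, among them 3 of 23 ATF4 arm members (Ddit3, Trib3, Slc7a3) and 1 of 17 ER arm members (Hsp90b1). Within clone 4, 0h is 1 library and was taken to vary like the others.

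Hsp90b1 (ENSMUSG00000020048, chr10:86690209-86705509) had the clearest of these differences. Its CPM was 235 at 0h and 311 and 321 at 4h in clone 4, but 263 and 256 at 0h and 189 and 178 at 4h in clone 8. The log2 fold change in 4h vs 0h was 0.43 (SE 0.118) in clone 4 and -0.50 (SE 0.0953) in clone 8, and the interaction had an adjusted p of 0.000838 (edgeR), where 3.87% of all genes passed that test. In 4h vs 2h the clones also differed, by -0.66 on the log2 scale (adjusted p = 0.00791, where 3.14% of all genes passed). The joint p of Hsp90b1 was under 0.05 in each of the 18 fits tried, with 0.0486 as the largest, without 4h clone8_2. Of its exon bases 15.67% are shared with other annotated genes. Slc7a3 (ENSMUSG00000031297, chrX:101079210-101086020) fell by 1.08 in clone 4 (from 74.1 to 33.0 and 37.0 CPM) and had a change of -0.16 in clone 8 (from 71.6 and 68.3 to 62.4 and 63.0 CPM), with an interaction p of 0.00735 adjusted by edgeR. For Ddit3, Trib3 and Slc7a3 the joint call was less steady, being kept in 7, 10 and 11 of the 18 fits, and without 0h clone8_1 none of the 3 was called (edgeR adjusted p = 0.0668, 0.0865 and 0.0917). That count was also 0 without 0h clone8_2, 4h clone8_1, 4h clone8_2 or rev clone8_1, and 1 without rev clone4_1 or rev clone4_2. The share of all genes called in those fits was not counted.

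**Figure D4:**
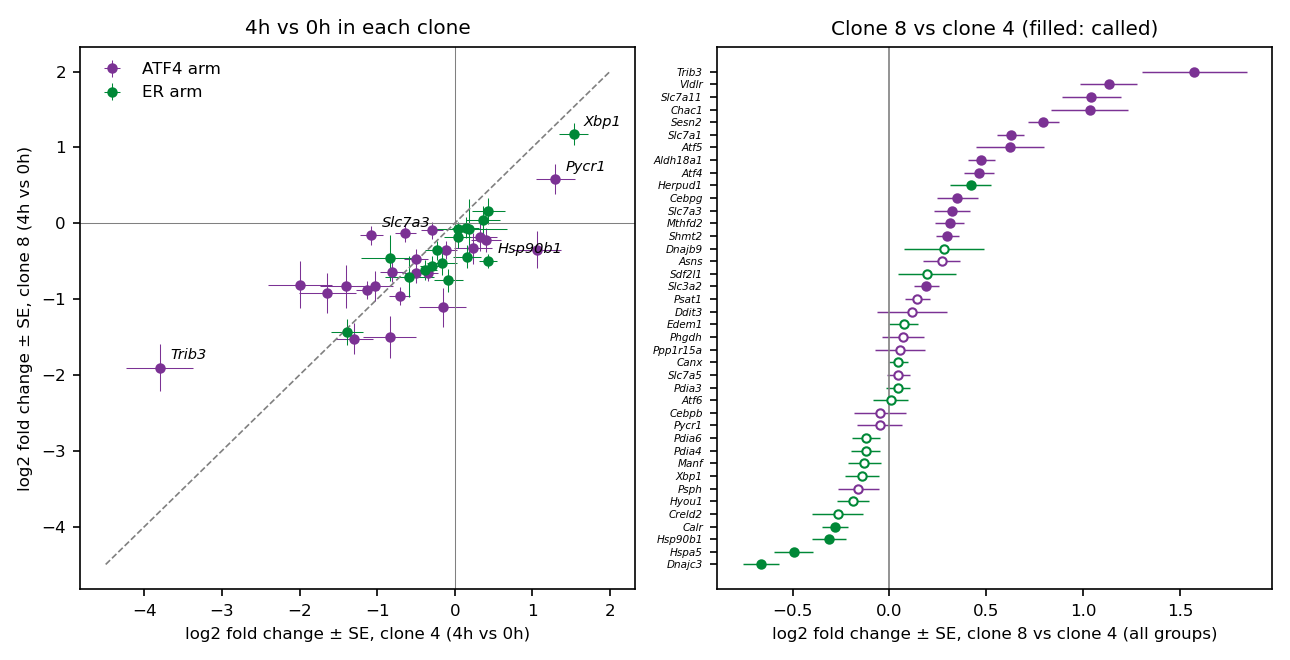
Left, log2 fold change ± SE in 4h vs 0h within clone 4 (horizontal) and clone 8 (vertical) for the 40 members, with the dashed line where both are equal; right, log2 difference ± SE of clone 8 from clone 4 over all groups, with filled symbols for called members. Hsp90b1 and Slc7a3 lie off the dashed line at 0.43 and -0.50 and at -1.08 and -0.16, and the 9 highest symbols on the right are of the ATF4 arm.

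Other genes of the 2 pathways, were counted in 7 further lists, to be read against the 39.4% of all genes called in 4h vs 0h. Of 20 cytosolic aminoacyl-tRNA synthetases, which charge tRNAs and many of which ATF4 controls, 11 were called at 4h against 0h (55.0%), each lower, with a median of -0.34. Mars, whose exons overlap those of Ddit3, fell by 0.90 and Yars by 0.88, and in rev vs 4h, with 30.8% of all genes called, 6 of the 20 were called higher. Of 22 further ATF4 targets tested, 9 were called lower and 1 higher at 4h (45.5%, near the share of all genes), and 6 higher and 2 lower in rev vs 4h. Among them Cbs, an enzyme of cysteine synthesis, stood at 13.7 ± 2.16 CPM at 0h (mean ± SD, n = 3) and fell to 3.81 ± 1.08 CPM at 4h (n = 4). Atf3, a stress factor with 4.65 ± 1.60 CPM at 0h, was called lower with at most 1 count in any 4h library, which is too few for a fold. In the 13 genes of the eIF2 kinases, eIF2 and eIF2B, 2 were called higher and 2 lower at 4h (30.8%, below the share of all genes). Eif2ak2, the kinase PKR, had a log2 fold change of 0.67 with TMM and of -0.09 with scaling by the total count.

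The 17 further ER folding genes tested had 4 lower calls and 1 higher call at 4h (29.4%). The largest fall called was that of Fkbp11 (-2.125 with TMM, -2.943 by the total count). Sil1, a partner of BiP, and P4hb fell by 1.01 and 0.73. Of 12 genes of ER-associated degradation, 6 were called higher and 1 lower (58.3%), with a median of 0.33. That direction depended on the scaling, since by the total count the median was -0.45 (-0.73 over all genes). There 3 were called, each lower, where 49.8% of all genes were called. Edem3, a mannosidase that marks glycoproteins for degradation, rose by 1.10 with TMM (0.39, adjusted p = 0.27, by the total count), to 35.0 ± 3.72 CPM at 4h (n = 4) where 0h had held 16.2 ± 1.29 CPM (n = 3), while Selenos fell by 0.98. The translocon, signal peptidase and oligosaccharyltransferase list had 6 higher and 2 lower calls among 20, a share near that of all genes. By the total count it had 7 lower calls, with the same 49.8% of all genes called. Of the 7 genes listed for IRE1, the site proteases and related factors, 2 were called higher, Creb3l2 (1.66) and Mbtps2 (0.87), and 1 lower (42.9%). Neither higher call held by the total count (0.84 and 0.14). At 2h the single calls in these lists were those of Ern1, which encodes IRE1 (0.87, adjusted p = 0.00558), and Syvn1, the ubiquitin ligase of ER-associated degradation (0.67, adjusted p = 0.00201), both higher, where 6.45% of all genes were called. By the total count they stood at 0.69 and 0.48 and were not called (adjusted p = 0.325 and 0.578).

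Scaling moved all genes together. By the total count, in which the 9 most abundant genes took 63.3% to 77.9% of the counts at 4h, the median over all genes was -0.73 in 4h vs 0h. The higher calls of Pycr1 (0.11, adjusted p = 0.771) and Xbp1 (0.59, adjusted p = 0.0913) were then lost. With 49.8% of all genes called, 19 members of the ATF4 arm and 13 of the ER arm were called, all lower. Of all calls 7.11% were higher, against 52.0% with TMM. At 2h no ER arm member and 1 ATF4 arm member was then called (1.98% of all genes), and in rev vs 0h no ER arm member (5.64%). In rev vs 4h, 12 and 8 members were called, all higher, where 23.4% of all genes were called. Of those calls over all genes 88% were higher. Of the 84 single calls of the 5 comparisons, all kept their sign, 69 were still called and 15 were lost. Relative to the median of all genes in 4h vs 0h, the arms stood at -0.58 and -0.19.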

How the data were processed

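Ribosomal RNA was depleted from 1 µg of RNA per sample before NEBNext Ultra II library preparation, per the labels' protocols. The authors deposited raw counts per gene; the submitters' processing notes name STAR 2.5.3a, bcl2fastq 2.19.1 and mm10, and the counting tool, annotation and strand setting are not given in the sources used here. One 0h sample was discarded by the authors. Member positions and exon overlaps came from GENCODE M21 (GRCm38, the assembly of mm10), which held 52489 of 52636 identifiers, and promoters from RefSeq.

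Counts were tested in R 4.3.3 with edgeR 4.0.16 (filterByExpr with a minimum count of 10 and total of 15, TMM, robust quasi-likelihood F test, two-sided) over all 15 samples with the clone as an additive covariate. Clone differences were tested as interactions of group and clone. Fits were tested on simulated data with known changes. Alternatives used DESeq2 1.42.0, other scalings, filters, designs and left-out libraries. No pair of libraries agreed within counting error (chi-square per degree of freedom from 5.46). The members and lists were chosen with earlier results of these data known. All members are named, and of the other lists only genes among the 3 largest called changes per list and comparison. Replicate numbers within clones did not pair the samples (correlation of same-numbered deviations -0.194 to 0.261 over 9 pairs).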

Additional observations from a re-analysis of the deposited data

Results flagged for a closer look

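In groups of 4 libraries, 3 of 120 sets of values held a library farther from the rest than Dixon's critical value, where chance gives about 1 in 20. These were Phgdh in 4h clone4_2 (22.0 CPM), Pycr1 in rev clone4_1 (15.7 CPM) and Hyou1 in rev clone4_1 (162 CPM), each the highest of its group.

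The response differed between clones, by an interaction test in edgeR, for Slc7a3 in 4h vs 0h (clone 8 minus clone 4, 0.92) and for Hsp90b1 in 4h vs 0h (-0.92) and 4h vs 2h (-0.66). Over the whole course the joint interaction test gave adjusted p-values of 0.0306 for Ddit3, 0.0433 for Trib3, 0.0334 for Slc7a3 and 0.0035 for Hsp90b1. Trib3 had only 0 and 6 counts at 4h in clone 4.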

How the results depend on the processing

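Of the 84 single calls of members, none reversed, 64 held whichever 1 library was left out, 69 held with scaling by the total count, and 55 in every setting other than these. With all of them together 44 held. The count of ATF4 arm members in 4h vs 0h was 15 or 16 with any 1 library left out. In those fits 27.9% to 38.8% of all genes were called, and 33.9% to 37.4% in 4h vs 2h. The smaller counts moved more. With any 1 library left out, 1 to 3 ATF4 arm and 1 to 4 ER arm members were called in 2h vs 0h, where 2.23% to 8.11% of all genes were called. In 4h vs 0h 5 to 10 ER arm members were called (median relative to all genes -0.33 to -0.13), and in 4h vs 2h 7 to 12. In rev vs 0h the counts were 1 to 6 ATF4 arm and 0 to 2 ER arm members, where 3.7% to 9.78% of all genes were called. The joint clone test called 0 to 3 ATF4 arm members in those fits, and it could not be fitted without 0h clone4_1. Without the clone in the model, 11 ATF4 arm and 6 ER arm members were called in 4h vs 0h (32.6% of all genes) and 1 ER arm member in 2h vs 0h (3.17%). In that model 9 ATF4 arm members were called in rev vs 4h (23.3%), and 0 ATF4 arm and 1 ER arm members in rev vs 0h (5.9%). Without a filter on low counts, 4 ATF4 arm members were called in 2h vs 0h (4% of all genes), and the joint clone test called 5 and 2. The share of all genes called by the joint test in these alternatives was not counted. Scaling by the total count gave 1 and 0 in 2h vs 0h (1.98% of all genes), 0 ER arm members in rev vs 0h (5.64% of all genes), and 6 and 1 for clone 8 against clone 4 (share of all genes not counted). The replicate number as a block, which does not pair these samples, left 1 ER arm member in rev vs 0h (8.21% of all genes) and 80 of the 84 single calls. The causes were not tested. At 4h, 3 counts are worth up to 1.83 CPM, so values of Trib3, Vldlr, Chac1, Sdf2l1 and Dnajb9 there are imprecise. Those of Ddit3, Cebpb and Slc7a11 at 4h are imprecise too, resting on 6 to 15, 6 to 19 and 6 to 17 counts per library.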
